A study of Homo sapiens with 8 samples.

Results

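LINC01419 is a long intergenic noncoding RNA, and 2 of the 491 transcript clusters in the authors' table of changed genes carry its name. A transcript cluster gathers the probe sets of 1 transcribed locus on the array used, the HTA 2.0 of Affymetrix. Both clusters were chosen by that symbol, TC08002000.hg.1 and TC08000524.hg.1. Beside them stand 2 of the 573909 exon rows of the deposited array values, PSR08007047.hg.1 and PSR08024757.hg.1. An exon row is a probe set for a stretch of a single exon, and these 2 were chosen because their ID places them on chromosome 8 and their mean log2 signal was 9 or more in shNS and under 4 in shPLK1. The deposited values do not pair exon rows with genes, so these exon rows are named by ID, and no value of theirs is given as a level of LINC01419. The members were picked for their difference between shPLK1 and shNS, so their values are a description and carry no test.

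The study compared A375, a human melanoma cell line, with and without knockdown of polo-like kinase 1 (PLK1), a kinase of mitosis. The shPLK1 group held 4 arrays of A375 cells with a lentiviral shRNA against PLK1, and the shNS group held 4 arrays of A375 cells with a nonsense shRNA. Both shRNAs came from doxycycline-inducible TRIPZ vectors, and both groups received doxycycline for 48 h before total RNA was isolated. The labels list several shRNA clones against PLK1 and do not say which was used, and the methods give 3 replicates of each line while 4 arrays are labelled for each. For the arrays the methods name previously created cells. They also describe A375 shNS and shPLK1 lines as puromycin-selected pools, and do not say whether the array cells are these. Each group came from its own line, so knockdown and any other difference between the lines cannot be told apart, and the spread between arrays is the spread between samples of 1 line. PLK1 itself could not be read in these arrays, because no exon row is paired with a gene and the table has no cluster for it. The table lists only clusters past the authors' limits on fold and p-value, so PLK1 is not listed as changed and the knockdown is not seen there. Of 14 markers set down for melanoma cells and for other cell types, AXL and SOX9 were the 2 in the table. AXL, a receptor kinase of undifferentiated melanoma cells, had authors' averages of 10.68 in 5d and 9.56 in NS on the log2 scale, and SOX9, a neural crest transcription factor, had 8.81 in 5d and 7.57 in NS, while the levels of the other markers were not read here.

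Long intergenic noncoding RNAs are transcribed and often spliced like messenger RNAs, but code for no known protein. Some act on the chromatin around their own gene, others bind proteins or RNAs elsewhere in the cell, and many are found in few cell types only. LINC01419 has been studied mostly in carcinomas, among them those of liver and oesophagus. RefSeq lists it on chromosome 8 as a long noncoding RNA, with LVCAT7 and PRLH1 among its other names. The build of the array annotation is not given in the sources used here, so no coordinates are printed.

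In the authors' table, both clusters of LINC01419 had a much lower average in 5d cells than in NS cells. Its columns are headed 5d and NS. What 5d stands for is not given in the sources used here, and it was read as shPLK1 because the series has no further group beside shNS. TC08002000.hg.1, classed as noncoding, had an authors' average of 4.36 in 5d and 11.3 in NS on the log2 scale, a difference of -6.94, or 123-fold lower in 5d. TC08000524.hg.1 had an authors' average of 5.52 in 5d and 10.23 in NS, a difference of -4.71, or 26.2-fold lower in 5d. This second cluster is classed as coding, although its symbol is that of a noncoding RNA and its description adds a further transcript. Clusters of another LINC symbol, LINC00622, and of a protein gene, MMP1, are also classed in both ways. The class therefore does not show whether an RNA codes for a protein. These averages are 1 value per group, without a spread. The array's background controls, probe sets that match no human gene, had means of 1.31 to 10.82 in shPLK1, rising with the G and C bases of their probes, and both averages in 5d lie within that range. In shNS the controls had means of 1.40 to 10.75. The NS average of 10.23 of the coding cluster lies within that range too, and the 11.3 of the noncoding one lies above it. Only the control with 25 G and C bases, at 10.75, exceeded 10.23, and the next highest control, with 24, had 8.60 in shNS. The controls are single probe sets and the averages are the authors' values for whole clusters, so the measures are not alike. The folds of 123 and 26.2 are therefore ratios of the listed averages, and how much of the averages is background is not known. In cultured cells, fewer cells that hold the RNA and less RNA per cell cannot be told apart.

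Among the 491 clusters, which were listed by the authors for a change over 2-fold, the differences of the averages ran from -6.94 to 2.83, with a median of -1.12. The noncoding LINC01419 cluster ranked 1 by decrease and the coding one ranked 3. By the average in NS they ranked 2 and 8 of all listed clusters, while by the average in 5d they ranked 378 and 271. The ranks by average order array signals, which depend on the probes, and not amounts of RNA.

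**Figure D1:**
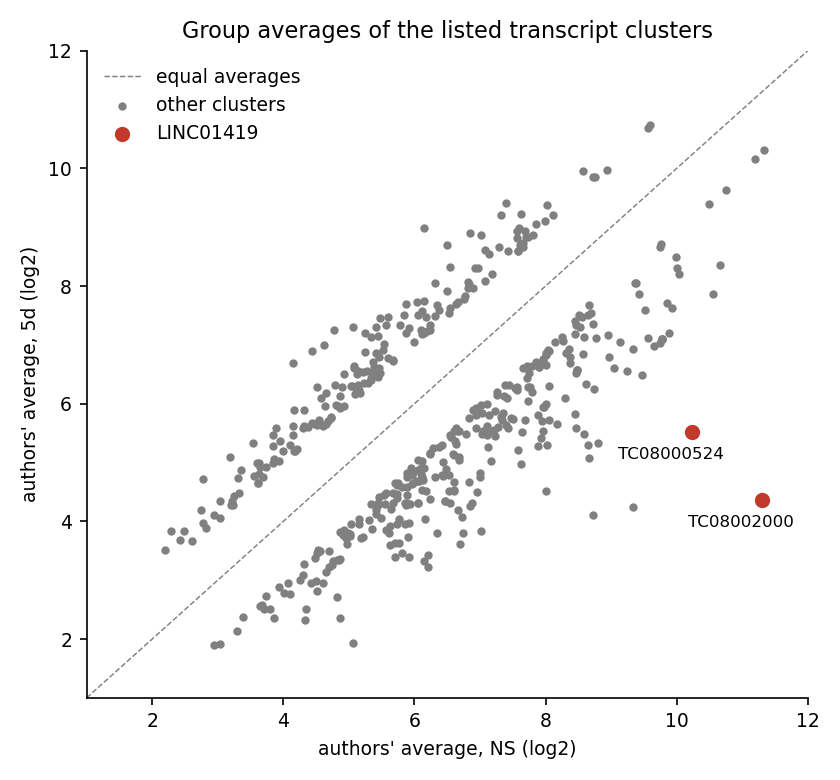
Authors' average log2 signal in 5d (vertical axis) against that in NS (horizontal axis) for the 491 listed transcript clusters, 1 point each. The empty band along the dashed line of equal averages is where changes under 2-fold would lie. Both LINC01419 clusters sit at the far right, with 4.36 and 5.52 in 5d against 11.3 and 10.23 in NS.

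The clusters of LINC01419 did not differ between the groups by the same amount. The difference was 2.23 log2 units larger in size in the noncoding cluster than in the coding one. Of 34 symbols with 1 coding and 1 noncoding cluster in the table, the other 33 had gaps of 0.01 to 1.5, with a median of 0.29. ART3, a gene of the ADP-ribosyltransferase family, had the gap of 1.5, with -1.06 in its coding and -2.56 in its noncoding cluster. In all of the other 33 symbols both clusters had the same sign, as in LINC01419. The gap of LINC01419 exceeded those of the other 33 in log2 units, in a list that holds changes over 2-fold only. LINC01419 also had the largest differences of the 34 symbols, -4.71 and -6.94, and a gap can be larger where the differences are larger. Relative to the coding cluster, the noncoding difference was larger in ART3, LMO3, SOX4 and SORL1 than in LINC01419. In the coding and noncoding clusters, LMO3 had 1.14 and 2.56, SOX4 had -1.11 and -2.14, and SORL1 had 1.23 and 1.94.

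The clusters whose pair of averages lay nearest to LINC01419 were found by the Euclidean distance over the 5d and NS averages, that is, over 2 values per cluster. Nearest to the noncoding cluster was LOC101927885, an uncharacterised locus, at a distance of 1.96 log2 units, with 4.25 in 5d and 9.34 in NS. EPHA3, a receptor of ephrins, followed at 2.58, with 4.11 in 5d and 8.73 in NS. SERPINA3, a protease inhibitor, was at 2.69, SYTL5, a synaptotagmin-like protein of vesicle traffic, at 2.72 and IGFBP5, a secreted protein that binds insulin-like growth factors, at 2.81. No listed symbol therefore came closer than 1.96 log2 units to the noncoding cluster, apart from the coding cluster of LINC01419 itself.

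Nearest to the coding cluster was IGFBP5, at a distance of 1.23, with 6.49 in 5d and 9.47 in NS. HLA-DRB1 followed at 1.44, SERPINA3 at 1.44, LOC101927885 at 1.55 and HLA-DRA at 1.57. HLA-DRA and HLA-DRB1 encode chains of the HLA class II molecule that presents peptides to T cells. Their clusters have several copies in the table, and the nearest copy was used. LOC101927885, SERPINA3 and IGFBP5 were near both clusters of LINC01419.

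After LINC01419, the 5 symbols with the largest decreases were LOC101927885 with a difference of -5.09, EPHA3 with -4.62, SYTL5 with -3.6, PTGS2 with -3.49 and SERPINA3 with -3.46. PTGS2 is the inducible cyclooxygenase of prostaglandin synthesis. LOC101927885 lay between the LINC01419 clusters in size, and EPHA3 came just after the coding one, without an error in the table by which to judge that order. All 5 of these clusters are classed as coding, which does not show that they code for a protein.

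The remaining 13 clusters with a LINC symbol, from 11 genes, had differences from -2.28 to 1.52, 9 of them lower and 4 higher in 5d. Of all 491 listed clusters, 306 were lower and 185 higher in 5d, so nothing is read from these directions. LINC00622 had -2.28 in its coding and -1.85 in its noncoding cluster, and LINC01239 had -2.17. LINC00460 had -1.18 and -1.1 in its coding and noncoding clusters. The count takes in LINC symbols only, and other listed transcripts that may be noncoding had larger decreases, among them LOC101927885 with -5.09 and ZNF385D-AS1, named as an antisense RNA, with -2.94. On the higher side, LINC01186 had a difference of 1.52 and LINC00707 one of 1.33. Their averages in NS were 4.3 to 8.61, all below both averages of LINC01419 there. Of 40 names of long noncoding RNAs studied in melanoma, which stand for 38 genes and include HOTAIR, BANCR, SAMMSON and MALAT1, 0 are in the table. The table lists only clusters past the authors' limits on fold and p-value, so an RNA without an entry has no measured change here.

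The neighbourhood of LINC01419 on chromosome 8 is poor in coding genes. Of the 10 genes on each side in RefSeq order, 8 are long noncoding RNAs, 11 are pseudogenes and 1, RALYL, which encodes an RNA-binding protein, codes for a protein. Of these 20 neighbours, 0 are in the table. The table names only 305 symbols, all past the authors' limits on fold and p-value, so this count gives no measured change for the neighbours. Whether the array has probes for each of them is not given in the sources used here. Among listed symbols that RefSeq places, the nearest were PKIA, an inhibitor of protein kinase A, with 87 RefSeq genes in between, and ZHX2, a transcriptional repressor, with 542 in between on the other side. Listed chromosome 8 clusters without a symbol, or with a symbol not in RefSeq, were not placed and may lie nearer. The averages of PKIA were 5.82 in 5d and 6.95 in NS, in a noncoding cluster, and those of ZHX2 were 6.79 in 5d and 5.46 in NS. These placed symbols thus differed in opposite directions, by -1.13 and 1.33. All 21 other listed clusters with chromosome 8 IDs had differences between -1.62 and 1.73. The lowest was in EYA1, a coactivator in organ development, and the highest in TC08001028.hg.1, listed as a transcript without a described function. Of these 21 clusters, 9 were lower and 12 higher in 5d, beside 306 lower and 185 higher of all 491 listed clusters. Nothing is read from this count.

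The exon rows show the values of each array. PSR08024757.hg.1 had 2.40, 2.23, 2.12 and 2.70 in shPLK1 replicates 1 to 4, against 10.001, 9.82, 9.92 and 10.34 in shNS replicates 1 to 4, all on the log2 scale. Its mean was 2.36 ± 0.25 in shPLK1 and 10.02 ± 0.23 in shNS (SD, n = 4 arrays each), a difference of -7.66. The highest shPLK1 array, at 2.70, lay far below the lowest shNS array, at 9.82.

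PSR08007047.hg.1 had 2.43, 2.49, 2.27 and 2.93 in the shPLK1 arrays, against 9.96, 9.78, 9.94 and 10.24 in the shNS arrays. Its mean was 2.53 ± 0.28 in shPLK1 and 9.98 ± 0.19 in shNS (SD, n = 4 arrays each), a difference of -7.45. Within an array the 2 rows differed by 0.26 log2 units at most, and neither row has the same values as any other exon row. The same levels chose both rows, so close values follow in part from the choice. Their ID numbers lie far apart, but whether their probes share sequence is not given in the sources used here. Both rows had their highest value in replicate 4 and their lowest value in replicate 3 of shPLK1 and replicate 2 of shNS. In shPLK1 both rows were low among the background controls, so nothing is read from the order of replicates there.

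Each of these exon rows has a neighbour, numbered 1 lower, that was also lower in shPLK1 but kept a higher signal there. PSR08024756.hg.1 had 7.84, 8.01, 7.80 and 8.06 in the shPLK1 arrays, against 12.68, 12.61, 12.47 and 12.73 in the shNS arrays, a difference of -4.70. PSR08007046.hg.1 had 9.06, 9.61, 9.64 and 9.83 in the shPLK1 arrays, against 12.46, 12.37, 11.99 and 12.51 in the shNS arrays, a difference of -2.79. The means of PSR08024756.hg.1 were 7.93 ± 0.12 in shPLK1 and 12.62 ± 0.11 in shNS, and those of PSR08007046.hg.1 were 9.54 ± 0.33 in shPLK1 and 12.33 ± 0.23 in shNS (SD, n = 4 arrays each). These neighbours were picked for their place beside the chosen rows and for a difference over 2-fold, after their values were seen. In all 4 rows every shPLK1 array lay below every shNS array, as it did in 5.31% of all exon rows. All 4 were also called lower by limma at a Benjamini-Hochberg adjusted p under 0.05, beside 2.2% of all exon rows. Nothing is read from these counts, since the same contrast chose the rows.

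**Figure D2:**
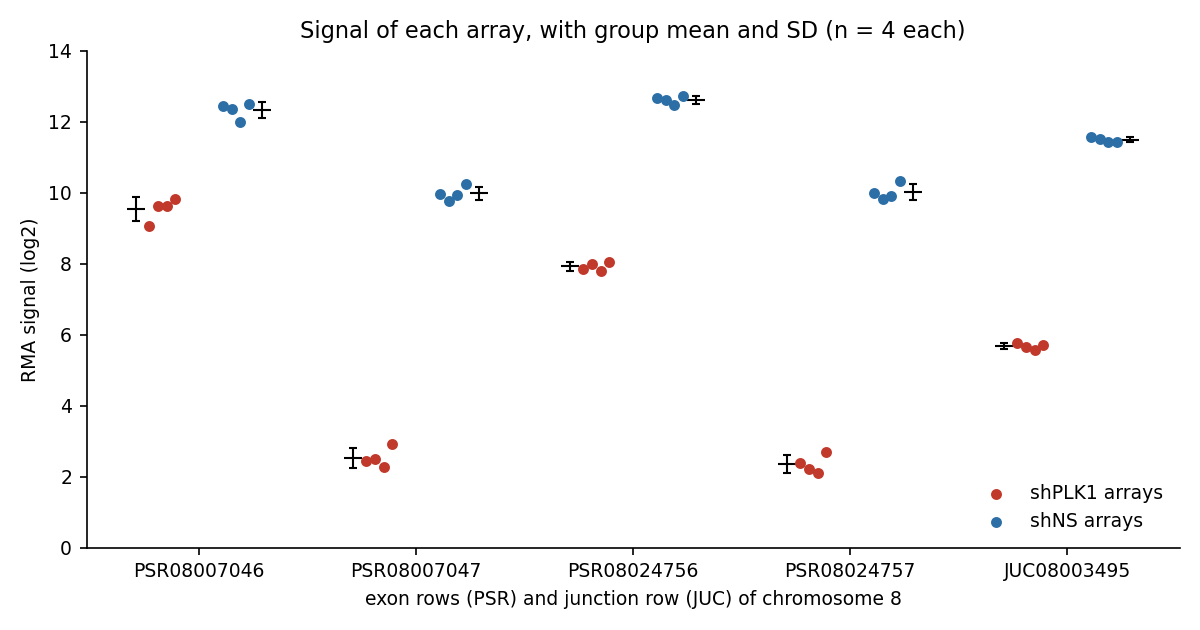
Log2 signal of each of the 8 arrays (points, replicates 1 to 4 from left to right) in the 4 exon rows and in the junction row JUC08003495, shPLK1 in red and shNS in blue, with the group mean and SD in black (n = 4 arrays each). In each row the 4 shPLK1 arrays lie below the 4 shNS arrays, with means of 2.36 and 2.53 in the chosen exon rows and at 5.68 to 9.54 in the others.

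The array signals of the 4 rows were also placed among those of all exon rows, as an order of signals and not of RNA amounts. PSR08024756.hg.1 and PSR08007046.hg.1 were exceeded in shNS by 0.257% and 0.432% of all exon rows, and PSR08024757.hg.1 and PSR08007047.hg.1 by 5.11% and 5.28%. In shPLK1, 18.9% and 7.22% of exon rows lay above PSR08024756.hg.1 and PSR08007046.hg.1. The chosen rows lay at the low end of the array in shPLK1, where 88.6% of exon rows lay above PSR08024757.hg.1 and 86.5% above PSR08007047.hg.1. The shPLK1 signals of all 4 rows lay within the range of the background controls, 1.31 to 10.82, so these places do not show how much RNA remained. In shNS the means of PSR08024757.hg.1 and PSR08007047.hg.1 also lay within the range of the controls there, 1.40 to 10.75, but above 22 of the 23 controls.

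The rows of a pair did not differ between the groups by the same amount. Within each array, PSR08007046.hg.1 exceeded PSR08007047.hg.1 by 7.0 ± 0.32 log2 units in shPLK1 and by 2.35 ± 0.24 in shNS (SD, n = 4 arrays each). PSR08024756.hg.1 exceeded PSR08024757.hg.1 by 5.56 ± 0.19 in shPLK1 and by 2.60 ± 0.17 in shNS (SD, n = 4 arrays each). The 4 shPLK1 arrays had gaps of 6.63 to 7.37 in the first pair and 5.36 to 5.78 in the second, against 2.05 to 2.59 and 2.38 to 2.79 in the 4 shNS arrays. Every shPLK1 gap exceeded every shNS gap of its pair. The higher-numbered row of each pair was chosen for a low shPLK1 mean, and its neighbour was not. Wider gaps in shPLK1 therefore follow in part from the choice, and nothing is read from them. The chosen rows were also low among the background controls there, so the size of these gaps depends on the background. The 2 lower-numbered rows also parted from each other in shPLK1, where PSR08024756.hg.1 was below PSR08007046.hg.1 by 1.22 to 1.84 log2 units in the 4 arrays, while in the 4 shNS arrays it was above it by 0.22 to 0.48. PSR08024757.hg.1 minus PSR08007047.hg.1 averaged -0.17 in shPLK1 and 0.04 in shNS, but with both rows low among the background controls in shPLK1 a gap between them could not be read there.

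Averaged over its rows, the pair PSR08007046.hg.1 and PSR08007047.hg.1 had 6.03 in shPLK1 and 11.15 in shNS, a difference of -5.12. The pair PSR08024756.hg.1 and PSR08024757.hg.1 had 5.14 in shPLK1 and 11.32 in shNS, a difference of -6.18. The coding LINC01419 cluster had -4.71 and the noncoding one -6.94 in the authors' averages. No file pairs the exon rows with the clusters, so these values stand side by side without a match.

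The low signals lay within the range of the array's background controls. The array carries 23 background control rows, which are sorted by the number of G and C bases of their probes and match no human gene. In the shPLK1 arrays their medians stood at 2.99, and in the shNS arrays at 2.97. The shPLK1 means of the chosen rows, 2.36 and 2.53, lay between the controls with 12 and with 13 G and C bases, at 2.08 and 2.53, and exceeded 10 of the 23 controls. PSR08007046.hg.1 exceeded 22 and PSR08024756.hg.1 exceeded 19 of the 23 controls in shPLK1. In shNS the chosen rows exceeded 22 of the 23 controls and their neighbours 23. The G and C content of the exon rows is not given in the sources used here, so the control that fits each is not known, and the differences of -7.66 and -7.45 depend on the background. With every value below the median control of its array raised to that median, the median difference of the 2 rows was -7.01 in place of -7.55.

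**Figure D3:**
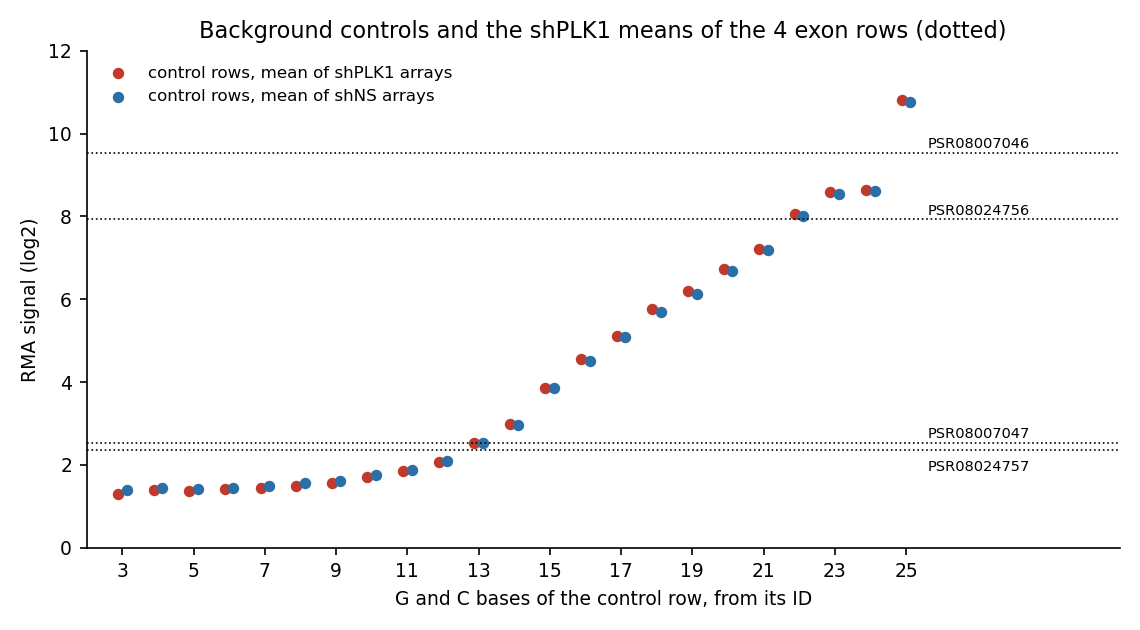
Mean log2 signal of the 23 background control rows (points, shPLK1 in red and shNS in blue) against the number of G and C bases in their IDs, with the shPLK1 means of the 4 exon rows as dotted lines. The chosen rows, at 2.36 and 2.53, cross the controls at 12 to 13 G and C bases, while their neighbours, at 7.93 and 9.54, lie between the controls with 21 and 22 and between those with 24 and 25 G and C bases.

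The spread within groups was small beside these differences. Exon rows within 0.25 log2 units of the shPLK1 means of the chosen rows had a median SD of 0.25 in shPLK1, over 36451 rows for PSR08024757.hg.1 and 35459 for PSR08007047.hg.1, so their SDs of 0.25 and 0.28 were common at that level. In shNS the SDs of 0.23 and 0.19 stood above a median SD of 0.11 for rows at the same level. PSR08007046.hg.1 had the widest spread of the 4 rows in shPLK1, at 0.33, against a median of 0.16 at its level. Replicate 4 was the highest array of its group in all 4 rows, in shPLK1 and in shNS. The medians of all exon rows ran from 5.45 to 5.52 over the 8 arrays, with replicate 4 at 5.51 in shPLK1 and at 5.45 in shNS. The authors' quantile normalization brings such medians together. With the chosen rows low among the background controls in shPLK1, nothing is read from their order of replicates in that group. Why replicate 4 was the highest in these rows was not tested.

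Rows near the pairs in the order of ID numbers were read next. Of the other exon rows within 30 ID numbers of either side of a pair, 103 are in the files, and their differences ran from -0.48 to 0.72 with a median of -0.02. Of these rows 0 differed by over 2-fold, while 1.05% of all exon rows were over 2-fold lower in shPLK1. The rows numbered 1 below the chosen ones had been set apart for a difference over 2-fold, and in 103 rows a count of 0 is near the share over all exon rows. limma at a Benjamini-Hochberg adjusted p under 0.05 called 0 of the 103 lower and 3 higher, beside 2.2% lower and 1.99% higher over all exon rows. A few high rows were among these neighbours. An shNS mean of 9 or more was reached by 5 of the 103, a lower share than the 59596 of all 573909 exon rows. PSR08007038.hg.1, 9 numbers below PSR08007047.hg.1, had 12.44 in shPLK1 and 12.49 in shNS. The nearest numbers on either side of the pairs, PSR08007045.hg.1 and PSR08007049.hg.1, and PSR08024755.hg.1 and PSR08024758.hg.1, had differences of 0.10, -0.27, -0.30 and 0.02.

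The 3 rows called higher lie on the lower side of the first pair. They are 2.91% of the flanking rows, near the 1.99% called higher over all exon rows, so nothing is read from their count. They were PSR08007032.hg.1, PSR08007033.hg.1 and PSR08007034.hg.1, with differences of 0.67, 0.71 and 0.60. Beside them, PSR08007031.hg.1, PSR08007035.hg.1 and PSR08007036.hg.1 had differences of 0.54, 0.34 and 0.72 without being called. PSR08007033.hg.1 had 7.42, 7.36, 7.72 and 7.11 in the shPLK1 arrays, against 6.62, 6.93, 6.46 and 6.75 in the shNS arrays. All 4 shPLK1 arrays of this row lay above all 4 shNS arrays, as in 4.89% of all exon rows. The gene of these rows is not given in the files.

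**Figure D4:**
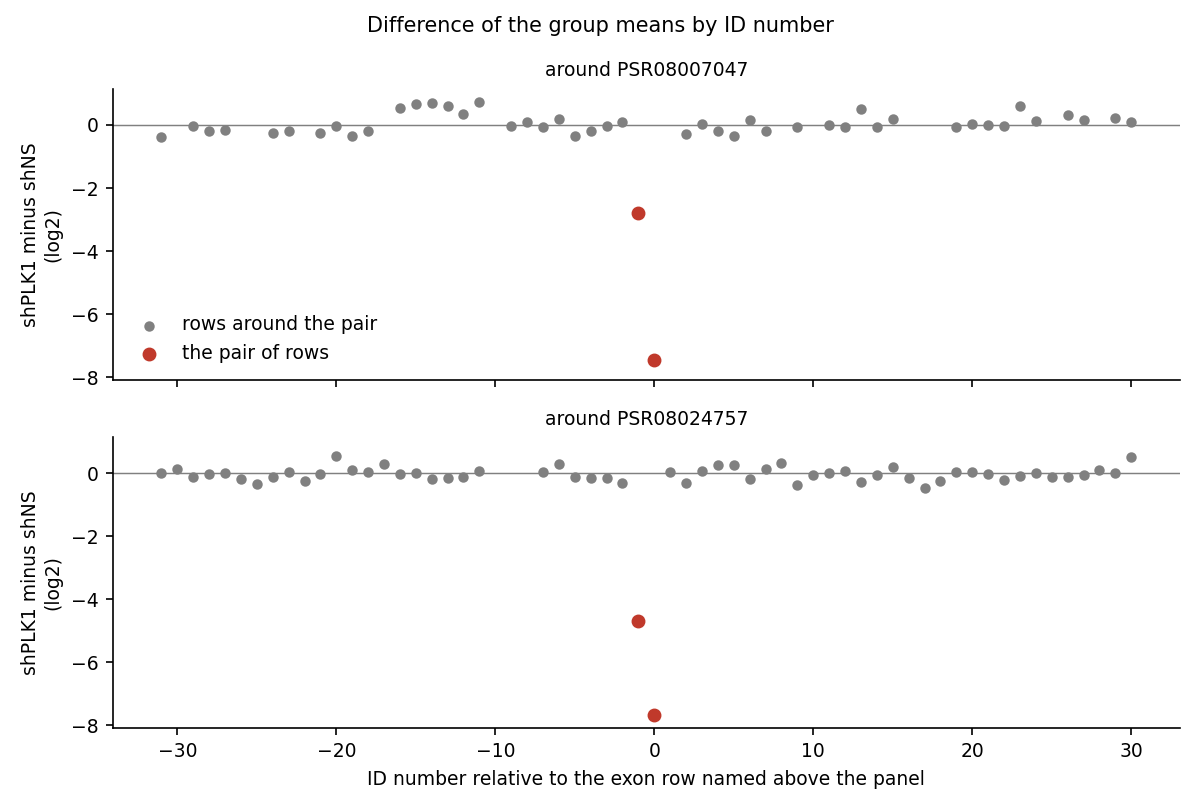
Difference of the group means, shPLK1 minus shNS on the log2 scale, for exon rows in order of their ID number around each pair, with 0 at PSR08007047 in the upper and at PSR08024757 in the lower panel. The pairs, in red, reach -2.79 and -7.45 in the upper and -4.70 and -7.66 in the lower panel, while the other rows stay between -0.48 and 0.72.

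On chromosome 8, 1997 of the 21891 exon rows had an shNS mean of 9 or more. Of these, 25 were over 2-fold lower in shPLK1, and 2 of these were under 4 there. The row closest to meeting the levels was PSR08019497.hg.1, which was 0.74 log2 units short of them with 2.63 ± 0.22 in shPLK1 and 8.26 ± 0.13 in shNS (SD, n = 4 arrays each). PSR08019498.hg.1 followed, 1.33 units short, with 4.82 in shPLK1 and 8.50 in shNS. The next were PSR08006594.hg.1, PSR08006581.hg.1 and PSR08024658.hg.1, which were 1.86 to 1.99 units short. Inside the levels there were only PSR08007047.hg.1, with 2.53 in shPLK1 and 9.98 in shNS, and PSR08024757.hg.1, with 2.36 in shPLK1 and 10.02 in shNS.

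Such a pattern was rare over the whole array. Of all 573909 exon rows, 9 met the same levels, or 0.00157%, and 0 met them the other way round, with 9 or more in shPLK1 and under 4 in shNS. Of the other 7 rows, 4 have chromosome 7 IDs, 2 have chromosome 3 IDs and 1 has a chromosome 5 ID, and their differences ran from -6.87 to -5.71. By size of decrease over all exon rows, PSR08024757.hg.1 ranked 1 and PSR08007047.hg.1 ranked 2. PSR08024756.hg.1 ranked 51 and PSR08007046.hg.1 ranked 528. These ranks follow from a choice by size and are given as a description.

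Junction rows, which measure the join between 2 exons, were read as a further description of the same contrast. Of 12796 junction rows with chromosome 8 IDs, 0 met the levels of the exon rows, and 6 did over all 339146 junction rows. The lowest difference on chromosome 8 was that of JUC08003495.hg.1, at -5.81, which ranked 14 among all junction rows. It had 5.77, 5.64, 5.57 and 5.73 in the shPLK1 arrays, against 11.57, 11.53, 11.42 and 11.44 in the shNS arrays, with means of 5.68 ± 0.09 and 11.49 ± 0.07 (SD, n = 4 arrays each). The spread within each group was narrower than in the 4 exon rows, and the groups lay far apart. Its 20 neighbours within 10 ID numbers on each side had differences between -0.94 and 0.94. The next junction row of chromosome 8, JUC08008768.hg.1, had a difference of -4.41, with 3.12 ± 0.68 in shPLK1 and 7.53 ± 0.43 in shNS (SD, n = 4 arrays each). JUC08003495.hg.1 was singled out for its size after the values were seen, and the files pair it with no gene.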

How the data were processed

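Total RNA of 8 A375 cultures, 4 shPLK1 and 4 shNS, was hybridized to HTA 2.0 arrays, with groups and replicate numbers taken from the labels. The authors used the Transcriptome Analysis Console of the array's maker with robust multi-array averaging (RMA), a background correction followed by quantile normalization and a summary over the probes of each set. Quantile normalization sets the arrays to a common distribution, and probes near the background lose the size of a decrease. In the deposited files, 914585 features have log2 values, from 0.47 to 14.3: 573909 exon rows, 339146 junction rows and 1530 control rows. The authors' deposited table gives a log2 bi-weight average per group for 491 transcript clusters. Its columns of fold change, p-value and FDR-adjusted p-value were not used, and folds printed here come from the averages. Array number, not depth, limits the precision.

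The background share of calls comes from limma (3.58.1, in R 4.3.3), fitted to all exon rows with group as the only term, default eBayes, no filter and Benjamini-Hochberg adjustment, called at an adjusted p under 0.05. The fit was tested on simulated data. Other values were computed in Python 3.11.15 with pandas 2.3.3 and drawn with matplotlib 3.10.9. Alternatives were other levels, medians, arrays left out, a floor, quantile normalization and other limma settings. Named clusters are LINC01419, the 5 symbols nearest to each of its clusters, the 5 next decreases and listed members of the lists. Other names, such as ART3, PKIA, EYA1 and the other LINC symbols, were chosen after their values were seen. The members and lists were chosen with earlier results of these data known. Gene names were matched to RefSeq (GRCh38.p14), which held 259 of the 305 symbols in the table and was used for names and gene order only.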

Additional observations from a re-analysis of the deposited data

How the results depend on the processing

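The count of 2 chromosome 8 exon rows was the same with group medians, without repeated rows, with quantile normalization and without any 1 array (2 to 2). With levels of 10 in shNS and 3 in shPLK1 it was 1, and with levels of 8 and 5 it was 5. Their median difference of -7.55 was -7.01 with the floor at the median background control, and -7.68 to -7.46 without any 1 array. Over all chromosomes the 9 rows became 1 with levels of 10 and 3, 91 with levels of 8 and 5, and 8 to 9 without any 1 array. limma called 12624 exon rows lower in shPLK1. With a fold above 2 and p below 0.05 before adjustment it called 6020, and without any 1 array 9800 to 11198 at the adjusted p. With the replicate number as a block it called 9161. Same-numbered arrays did not deviate together, with Pearson's r across exon rows of -0.14, 0.04, -0.06 and -0.10 for replicates 1 to 4, so the numbers were not taken as pairs. The levels of LINC01419 in the authors' table are 1 value per group and have no alternative.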
